A study of Arabidopsis thaliana with 4 samples.

Results

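CYP71B23 (AT3G26210) and CYP71B24 (AT3G26230) are a pair of genes for cytochromes P450 in Arabidopsis thaliana, and their transcript levels were followed in leaves before and after treatment with probenazole (PBZ). They were chosen because earlier results of these data showed both to be higher after PBZ. Their own values in that comparison are therefore given as a description, with no test. Each gene has 1 probe set, and the array annotation pairs each of these with exactly 1 gene. They are 2 of 24 single-gene probe sets whose symbol is CYP followed by at least 2 digits, among 9685 probe sets with 1 gene and 16319 probe sets in all. The other 22 are 20 cytochromes P450 and 2 cyclophilins, CYP71 and CYP59, whose symbols happen to share the pattern.

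Plants were 5 weeks old at treatment and grew under short days, and no mutant or transgenic line is named in the labels. Roots were drenched with 0.5 mM PBZ, a plant defence activator applied here so that the plants would make their own salicylic acid (SA). The group after PBZ was sampled at 72 h, and the group before PBZ was sampled at 0 h. Each group had 2 biological replicates of rosette leaves 5 to 8, and each RNA was hybridised to its own Affymetrix array. There was no untreated group at 72 h, so the effect of PBZ and that of 72 h of further growth cannot be told apart.

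Cytochromes P450 are haem enzymes that insert an oxygen atom into small molecules, and in plants most sit on the endoplasmic reticulum and receive electrons from a P450 reductase. The CYP71 family is the largest in Arabidopsis and acts mainly in specialised metabolism, including the synthesis of defence compounds. Its best known CYP71B member, CYP71B15 (PAD3), makes the phytoalexin camalexin. No substrate is assigned here to CYP71B23 or CYP71B24.

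CYP71B23 had a signal of 721.0 and 406.7 on the arrays after PBZ, against 22.6 and 34.2 on the arrays before PBZ. The groups did not overlap, and the lower array after PBZ was 11.9 times the higher array before PBZ. The mean was 564 ± 222 after PBZ and 28.4 ± 8.20 before PBZ (SD, n = 2 each), a log2 change of 4.28 ± 0.57 (SE from the limma fit over all probe sets) or a 19.5-fold ratio of geometric means.

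CYP71B24 had a signal of 392.6 and 167.8 after PBZ, against 24 and 46.8 before PBZ. These groups did not overlap either, although they lay closer, with the lower array after PBZ at 3.59 times the higher array before PBZ. The mean was 280 ± 159 after PBZ and 35.4 ± 16.1 before PBZ (SD, n = 2 each), a log2 change of 2.94 ± 0.59 or 7.66-fold. The change of CYP71B23 was thus larger by 1.35 on the log2 scale. Neither gene was near the bottom of the signal range on any array: the lower quartile of all signals, used here as a floor below which a ratio is poorly measured, was 6.30. In RNA of whole leaves a different number of cells that use a gene and a different amount of RNA per cell cannot be told apart.

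**Figure D1:**
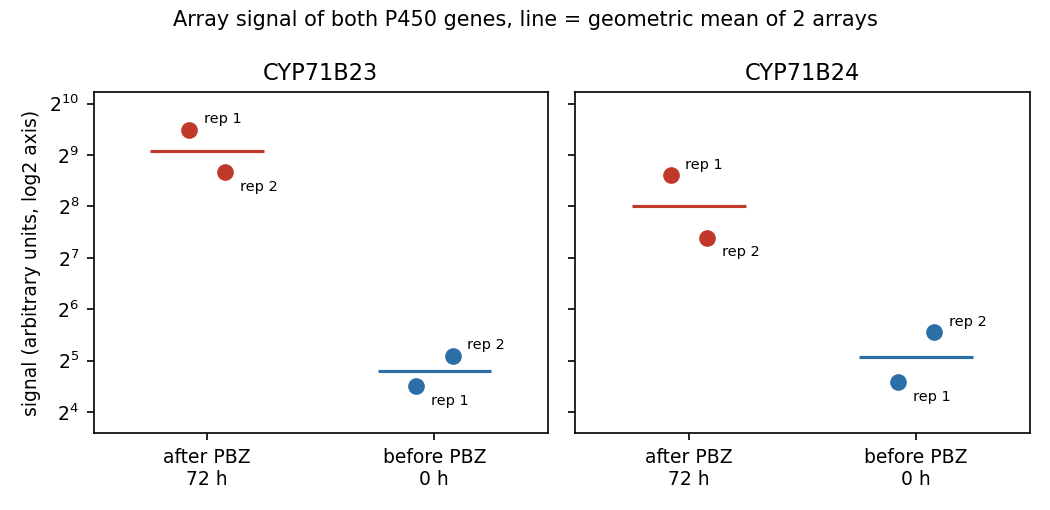
Signal of CYP71B23 (left) and CYP71B24 (right) on each array, on a log2 axis in arbitrary units, with after PBZ (72 h, red) left of before PBZ (0 h, blue). Points are single arrays and lines are geometric means of 2 arrays. For both genes the 2 arrays after PBZ lie above the 2 arrays before PBZ, with replicate 1 the higher after PBZ and replicate 2 the higher before PBZ.

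The array medians, over all probe sets, were 32.5 and 27.1 after PBZ and 19.2 and 27.6 before PBZ, and how the authors scaled the arrays is not stated. Divided by the array's median, CYP71B23 stood at 22.2 and 15.0 after PBZ and at 1.18 and 1.24 before PBZ. CYP71B24 stood at 12.1 and 6.19 after PBZ and at 1.25 and 1.70 before PBZ. On this scale, too, the groups of each gene did not overlap. The log2 change of CYP71B23 was 3.83 after quantile normalization and 3.92 with each array centred on its median, and that of CYP71B24 was 2.48 and 2.57. Both genes varied in the same way within the groups. After replicate 1 exceeded after replicate 2 by 1.77 times for CYP71B23 and 2.34 times for CYP71B24, while the medians of these arrays differed by 1.20 times. Before replicate 2 exceeded before replicate 1 by 1.51 times for CYP71B23 and 1.95 times for CYP71B24, while the medians differed by 1.44 times. Of the 12 other P450s bright enough to be tested, 11 were higher on after replicate 1 than on after replicate 2, as were 55.7% of all tested probe sets, and 9 were higher on before replicate 2 than on before replicate 1, as were 77.7% of all tested probe sets.

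Probe sets in the lowest 0.25 by mean log2 signal were left out as dim, and 12239 were tested with limma. Of these, 5.34% were called higher and 0.245% lower after PBZ (2-sided, Benjamini-Hochberg adjusted p under 0.05), which is 653 and 30 probe sets. The split depends on the scaling, with 546 higher and 278 lower after quantile normalization and 604 and 179 with each array centred on its median. With 1 array left out, 217 to 1136 were higher and 12 to 38 lower. Both arrays after PBZ lay above both arrays before PBZ for 36.1% of them and below for 10.6%, so groups that do not overlap are common here. By size of the fitted log2 change CYP71B23 was number 101 and CYP71B24 number 314 among the 12239. Among the 6816 tested probe sets with 1 gene they were numbers 41 and 142. Since the pair was chosen on this contrast, these places describe the choice.

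**Figure D2:**
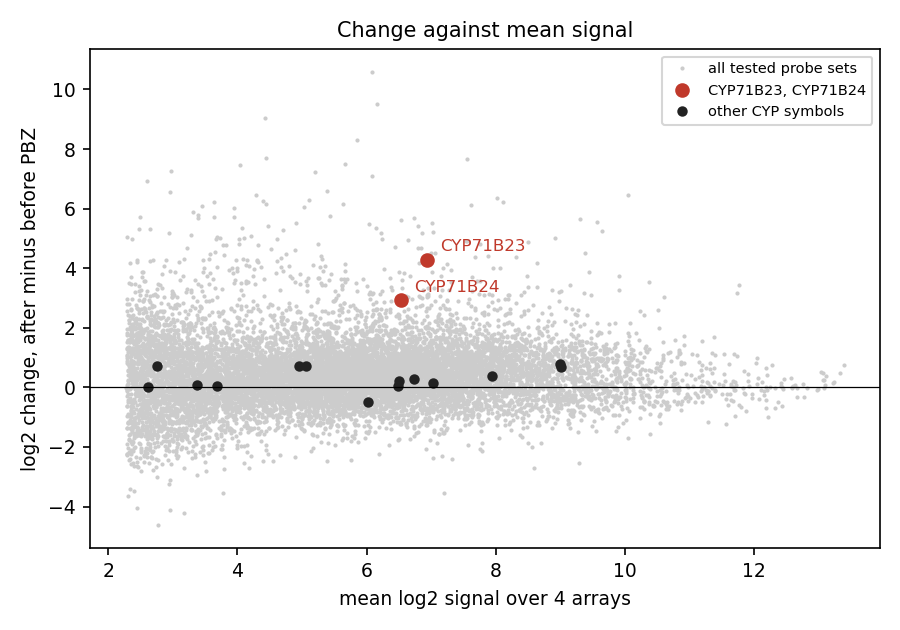
Log2 change (after PBZ minus before PBZ) against the mean log2 signal over 4 arrays for the 12239 tested probe sets (grey). CYP71B23 and CYP71B24 are red and the 14 other tested probe sets with a CYP symbol are black. The black points lie between -0.50 and 0.80 on the vertical axis, below both red points.

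The genes around the pair belong to the same subfamily. In the TAIR10.1 RefSeq annotation, used for names and gene order, CYP71B23 and CYP71B24 lie on chromosome 3 in a run of 18 CYP71B genes from CYP71B16 to CYP71B37, with 7 other genes among them and only CYP71B3 between the pair. Of the 18, 11 had a probe set of their own here, 2 shared one, and 5 were not analysed here, CYP71B3 among them. Of the 9 with their own probe set beside the pair, 5 were bright enough to be tested, and none passed the test, where 5.34% of all tested probe sets were called higher and 0.245% lower. With 5 genes, a count of 0 is near that background.

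CYP71B22 directly adjoins CYP71B23 in the annotation. It had a signal of 10.4 and 11 after PBZ and of 15.0 and 6.7 before PBZ. Its groups overlapped, with both arrays after PBZ between those before PBZ (log2 change 0.09 ± 0.92, limma adjusted p = 0.978). CYP71B21, on its other side, was below the floor on all 4 arrays, with 4.6 and 0.5 after PBZ and 0.8 and 1.3 before PBZ. CYP71B16, the first gene of the run, was above the floor on 1 array, with 6.5 and 0.9 after PBZ and 1.3 on both arrays before PBZ.

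On the far side of CYP71B24 the next gene with a probe set of its own is CYP71B25, below the floor on all arrays at 5.6 and 1.9 after PBZ and 0.8 and 2.1 before PBZ. CYP71B26 was well measured, at 739.4 and 581.5 after PBZ and 284.3 and 585.6 before PBZ. Its groups overlapped through before replicate 2, and its log2 change of 0.68 ± 0.51 did not pass (limma adjusted p = 0.547). CYP71B34 had 146.9 and 129.0 after PBZ and 74.5 and 205.6 before PBZ, and CYP71B36 had 49.9 and 36.1 after PBZ and 15.7 and 43.2 before PBZ. For these, too, before replicate 1 was the lowest array and the groups overlapped (log2 changes 0.15 ± 0.59 and 0.70 ± 0.61). CYP71B35 was the one tested gene of the run with a value below 0 as deposited, at 73.5 and 40.5 after PBZ and 65.2 and 91.5 before PBZ (log2 change -0.50 ± 0.57, limma adjusted p = 0.727). CYP71B37, the last of the run, was below the floor throughout, at 0.8 and 0.4 after PBZ and 3.3 and 1.3 before PBZ.

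**Figure D3:**
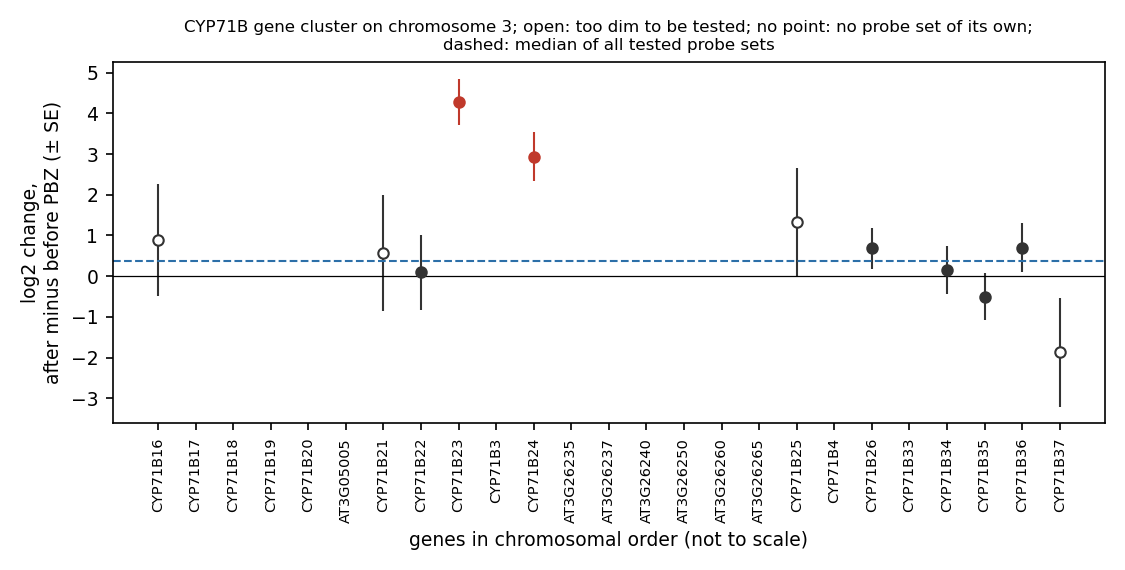
Log2 change (after PBZ minus before PBZ, ± SE) of each gene in the chromosome 3 run that has a probe set of its own, in chromosomal order and not to scale. Filled points were tested, open points were too dim, and the dashed line is the median of all tested probe sets, 0.37. CYP71B23 at 4.28 and CYP71B24 at 2.94 stand above the 5 other tested genes of the run, which lie between -0.50 and 0.70.

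One probe set outside the choice by symbol bears on the same run. The annotation pairs it with 2 CYP71B genes of the run, CYP71B20 and CYP71B19, and it cannot tell them apart. It read 573.5 and 283.3 after PBZ and 75.4 and 153.4 before PBZ, so its groups did not overlap. It was called higher (log2 change 1.91 ± 0.57, limma adjusted p = 0.0437). The call was lost after quantile normalization (limma adjusted p = 0.0631) and with dim probe sets kept in (limma adjusted p = 0.0678). With the replicate number as a block (limma adjusted p = 0.0767) and with no intensity trend (limma adjusted p = 0.259) it was lost too. Without after replicate 1, after replicate 2 or before replicate 1 the call was also lost, at log2 changes of 1.40, 2.41 and 1.39. The probe sets of CYP71B23 and CYP71B24 have names without the suffix that marks such sharing, but how far close relatives bind to them was not tested.

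CYP71B genes elsewhere in the genome were read in the same way. CYP71B6, which acts in indole metabolism on the intermediate that leads to camalexin, had 711.5 and 631.9 after PBZ and 313.9 and 471.0 before PBZ. It was the one other tested P450 whose groups did not overlap. Of all tested probe sets, 36.1% had both arrays after PBZ above both before PBZ. The log2 change of CYP71B6 was 0.80 ± 0.50 and did not pass (limma adjusted p = 0.448). CYP71B28 had 367.3 and 213.9 after PBZ and 170.6 and 271.5 before PBZ, and its neighbours CYP71B27 and CYP71B29 also overlapped between groups (log2 changes of the 3 from 0.38 to 0.73). The highest of these, CYP71B27, had an SE of 1.23 and 1 array before PBZ below the floor. CYP71B5 varied little, with 99.3 and 85.3 after PBZ and 89.1 and 87.5 before PBZ (log2 change 0.06 ± 0.56). CYP71B38, with 1 array of each group below the floor, was at 0.02, with an SE of 1.3.

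The remaining CYP71B probe sets were too dim for a test. CYP71B30P, named as a pseudogene, read 2.4 and 9.1 after PBZ and 1.1 and 0.5 before PBZ, with 3 of 4 arrays below the floor. CYP71B31, an enzyme of floral terpenoid oxidation, read 1.4 and 2.0 after PBZ and 0.6 and 7.5 before PBZ. No ratio is drawn from these.

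P450s of other families were few. CYP78A9, which promotes growth of fruits and seeds, had 139.3 and 99.4 after PBZ and 76.1 and 122.3 before PBZ, and the groups overlapped (log2 change 0.29 ± 0.57, limma adjusted p = 0.860). CYP51G2 and CYP718 were too dim to be tested. The cyclophilins CYP71 and CYP59, protein-folding enzymes and not P450s, were at log2 changes of 0.23 ± 0.58 and 0.05 ± 0.81.

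**Figure D4:**
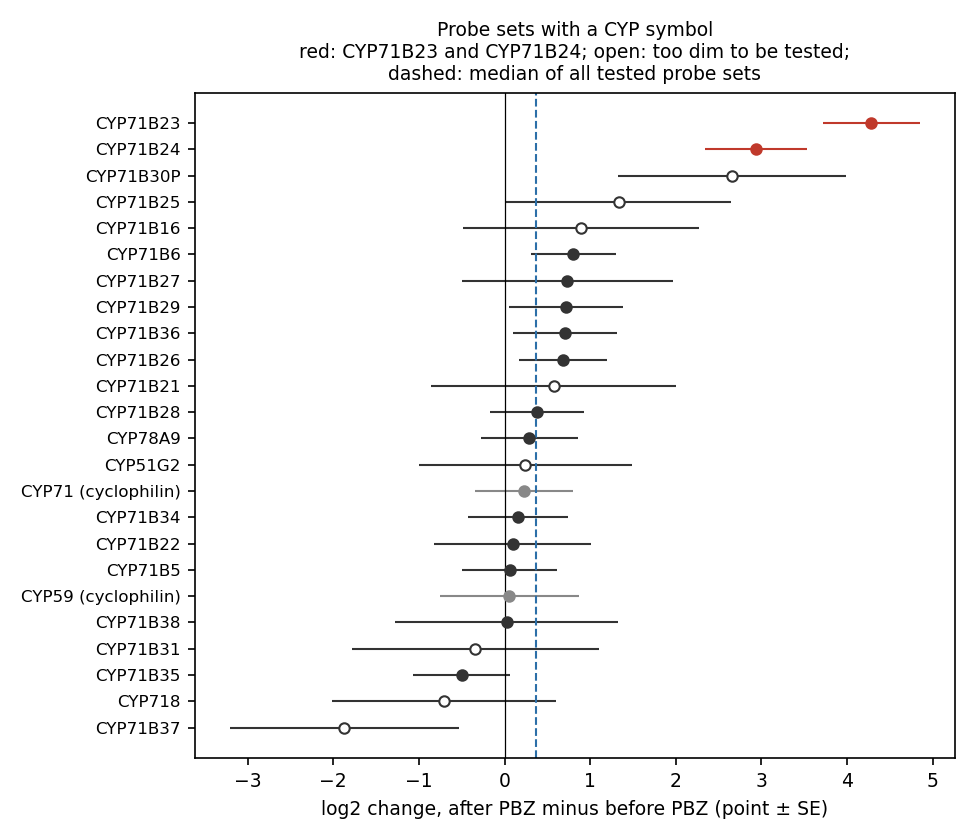
Log2 change (after PBZ minus before PBZ, ± SE) of all 24 probe sets with 1 gene and a CYP symbol, sorted by value. CYP71B23 and CYP71B24 are red, cyclophilins grey, open points were too dim to be tested, and the dashed line is the median of all tested probe sets, 0.37. The open points have wide errors, up to 1.44, and CYP71B30P at 2.66 ± 1.33 is one of them.

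In all, 14 of the 22 other probe sets with a CYP symbol were tested, 12 of them P450s, and limma called 0 higher and 0 lower, where 5.34% and 0.245% of all tested probe sets were called. None of the 14 had an unadjusted p under 0.05 in limma. The share of all tested probe sets at that unadjusted threshold is not given here, so nothing is drawn from that count. The 12 P450s had a median log2 change of 0.33 as deposited, beside 0.37 over all tested probe sets, and 11 of the 12 were above 0. After quantile normalization their median was -0.17, beside -0.06 over all, and 5 were above 0, so the direction of the family's small changes turned with the scaling. The mean log2 change of CYP71B23 and CYP71B24 exceeded the median of the 14 by 3.35, and that of the 12 P450s alone by 3.28. Without before replicate 2 the median log2 change of the 12 P450s was 0.80, beside 0.62 over all tested probe sets.

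Few P450s beyond the CYP71B genes were identified among the probe sets with 1 gene, and 6278 probe sets are unnamed here. Of 100 genes in 11 lists by role (such as hormones, glucosinolates, phenylpropanoids and cutin), 5 were identified and 2 tested, CYP71B6 and CYP78A9, with none called. No gene of the list of P450 reductases and cytochrome b5 proteins, the electron donors of P450s, was identified. Of 24 genes of SA response and turnover 5 were identified and 3 tested, UGT76B1, WRKY53 and GRX480. These 3 were called higher, as were 5.34% of all tested probe sets. The list was chosen with these results known. Before PBZ the floor was not reached by UGT76B1 on either array and by GRX480 on 1. UGT76B1 passed the dim filter through its arrays after PBZ. The count therefore supports nothing about the list. The untested members were BSMT1, at 0.8 and 1.6 after PBZ and 2.6 and 12.1 before PBZ, and UGT74F1, under the floor on all arrays.

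The 5 tested genes closest to each P450 in pattern were found by the root mean square difference of log2 signals over the 4 arrays, each gene centred on its own mean. Since 1 contrast dominates 4 arrays, the closest genes are ones with about the same change. For CYP71B23 the nearest of 6815 was AT1G17600, at a difference of 0.16, with 58.8 and 40.3 after PBZ and 1.8 and 3.5 before PBZ. Both of its arrays before PBZ were under the floor, so its place in this order is poorly measured. The others were GFAT, an amidotransferase of amino sugar synthesis, ATERDJ3B, a co-chaperone of the endoplasmic reticulum, AT1G15790 and AT3G26440, at 0.22 to 0.28. AT3G26440, at 4.5 and 9.1 before PBZ, had 1 array under the floor, so its place is poorly measured too. ATERDJ3B read 4090.5 and 2488.1 after PBZ and 94.9 and 207.3 before PBZ. Replicate 1 was the higher after PBZ and replicate 2 before PBZ, as for CYP71B23. Because the genes were picked for closeness over these same arrays, the shared order of replicates describes the choice.

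For CYP71B24 the nearest was AT3G14470, at a difference of 0.11, with 190.5 and 77.5 after PBZ and 10.5 and 25.2 before PBZ. The next was SBT3.5, a subtilase (a protein-cutting enzyme), at 0.18, with 306.7 and 111.4 after PBZ and 22.0 and 40.8 before PBZ. AT3G09010, AT1G63720 and AT1G49050 followed at 0.20 to 0.22. The pair did not lead each other's order. At a difference of 0.70, CYP71B24 was number 62 in likeness to CYP71B23, and CYP71B23 was number 257 in likeness to CYP71B24.

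**Figure D5:**
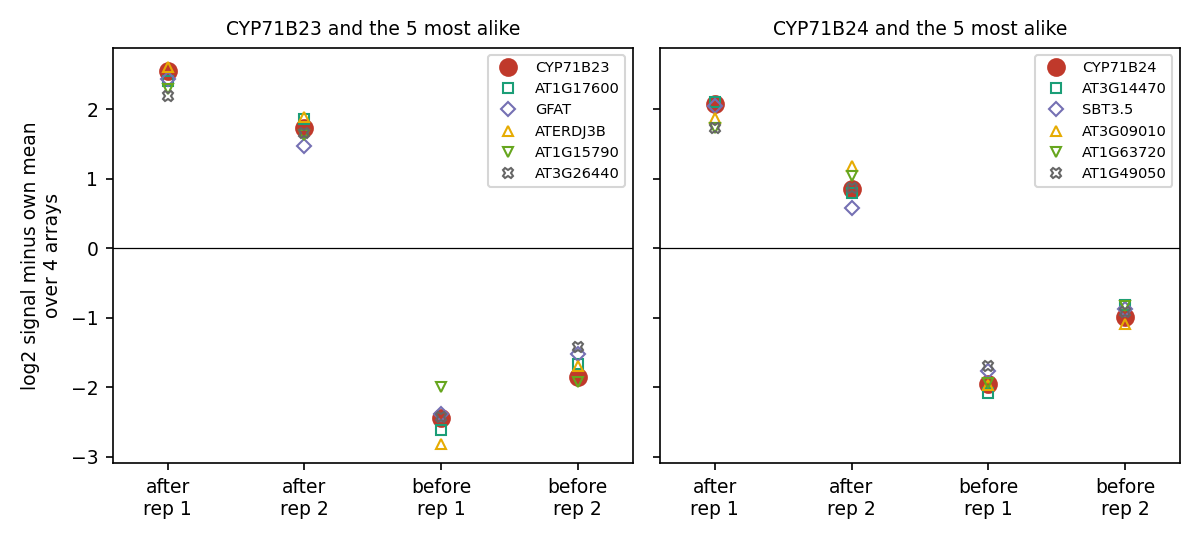
Log2 signal of each gene minus its own mean over the 4 arrays, for CYP71B23 (left, red) and CYP71B24 (right, red) with the 5 genes most alike to each. Arrays run from after PBZ on the left to before PBZ on the right. All genes shown are higher on both arrays after PBZ, with replicate 1 the higher after PBZ and replicate 2 the higher before PBZ.

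Markers of leaf cell types were read beside the pair. The summed signal of 3 identified mesophyll markers of 10 listed (PRK, SBPASE and LHCB4.2, genes of photosynthesis) was 9738 to 10083 after PBZ and 12949 to 15208 before PBZ. Of 4 phloem markers found in the RefSeq annotation, 1 was identified here. This was SWEET11, at 1118 to 1343 after PBZ and 1473 to 2009 before PBZ. The guard cell markers FMA and MUTE, 2 identified of 5, summed to 29.4 to 36.1 after PBZ and 23.2 to 27.9 before PBZ, with MUTE under the floor on all arrays. The 1 identified root marker of 6, EXPA7, was at 4.2 to 13.6 after PBZ and 0.7 to 8.3 before PBZ. The summed levels did not overlap between groups for mesophyll, phloem and guard cell markers and did for the root marker. Over all tested probe sets, both arrays after PBZ lay above both before PBZ for 36.1% and below for 10.6%. Among the mesophyll markers, PRK and SBPASE were lower on both arrays after PBZ. LHCB4.2 overlapped, at 4039.7 and 5176.8 after PBZ and 4686.8 and 5058.6 before PBZ. None of these genes passed the test where tested, no epidermis or xylem marker was identified, and their part in the values of CYP71B23 and CYP71B24 was not tested. Of 6 ratios of 3' to 5' control signal, a sign of RNA integrity, 0 set the groups apart, though single arrays stood out. The first version's actin ratio was 64.8 and 22.6 after PBZ and 26.5 and 22.4 before PBZ. The second version's was 12.9 and 10.6 after PBZ and 2.54 and 12.6 before PBZ. Before replicate 1 was also the lowest array for both GAPDH ratios (2.13 and 0.972) and the second version's ubiquitin ratio (0.649). It was not the lowest for the first version's actin and ubiquitin ratios. The same array had the lowest median signal, 19.2. Across tested probe sets log2 signals correlated at 0.899 between the arrays after PBZ, 0.888 between those before PBZ and 0.806 to 0.848 between groups, which describes probe sets and not replicates.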

How the data were processed

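Leaf RNA of 4 samples, 2 after PBZ and 2 before PBZ by their titles, was hybridised as biotin-labelled cRNA to 1-colour Affymetrix arrays, per the labels' protocols. GCOS was used, per the submitters' processing notes, and no version or scaling is given in the sources used here. Intensity signals on a linear scale, as deposited, were the starting point. After 64 control rows were left out, 16319 probe sets remained, of which the annotation gave 1 gene to 9685, several to 356, and listed none for 6278, which are unnamed here. Of the 9685, 9647 matched a TAIR10.1 locus.

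Values were taken as log2(signal), with 2 values of 0 set to 0.1. The lowest 0.25 of probe sets by mean were left out, and limma 3.58.1 in R 4.3.3 (lmFit, then eBayes with trend) was run on the remaining 12239, 2-sided, and p-values were adjusted by Benjamini-Hochberg at 0.05. There were 2 residual and 27.2 prior degrees of freedom, and 2 arrays per group limit the precision. It was tested on simulated data.

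The genes studied and the lists were chosen with earlier results of these data known. Named are every measured CYP71B gene, any other P450 past the test, up to 4 members of each role list by mean signal, and for each P450 of the pair the 5 genes most alike over 4 arrays. The alternatives were quantile normalization, median centring, no or a stricter dim filter, a pseudocount of 1.3, no intensity trend, a block for the replicate number, possibly shared probe sets left out, and each array left out in turn. Leaving out the cyclophilins was chosen after seeing the data. Protein and promoter sequences were not used here.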

Additional observations from a re-analysis of the deposited data

How the results depend on the processing

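The log2 change of CYP71B23 lay between 3.87 and 4.70 with each array left out in turn and between 3.83 and 4.28 under the other alternatives run. That of CYP71B24 lay between 2.32 and 3.55 and between 2.48 and 2.94. Their mean stayed 3.0 to 3.39 above the median of the other probe sets with a CYP symbol. None of these 3 values moved by more than the spread between replicates. For a single gene with 1 of 2 arrays left out this was fixed in advance, since that spread comes from the same arrays. The dim filter, the intensity trend, the block and probe sets or cyclophilins left out cannot move the change of a single gene. For the pair only the scalings and the pseudocount bear on this comparison with the replicate spread. Under all alternatives that kept the 4 arrays, 0 of the other probe sets with 1 gene and a CYP symbol were called in either direction. The 3 tested genes of SA response were called higher under each of these run on them, except 2 with the lowest 0.5 of probe sets left out. That filter can take a gene out of the test. The list was chosen with these results known, and 5.34% of all tested probe sets were called higher as deposited. These calls therefore support nothing about the list.

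Counts over all tested probe sets, 653 higher and 30 lower, moved more. Falls numbered 278 after quantile normalization, 179 with arrays centred, 15 without the dim filter and 48 with the lowest 0.5 left out. Without an intensity trend 157 rises and 8 falls passed. Leaving out 1 array gave 217 to 1136 rises and 12 to 38 falls: 217 rises without after replicate 1, 335 without after replicate 2, 328 without before replicate 1 and 1136 without before replicate 2. The cause was not tested.

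With the replicate number as a block (replicate block) 543 rises and 29 falls passed, and the probe set shared by 2 CYP71B genes did not pass (limma adjusted p = 0.0767). Nothing in the labels says that equal numbers mark paired samples, and deviations of same-numbered samples from their group means correlated at -0.06. No other call on a CYP probe set changed. The log2 changes of several of the other CYP probe sets, none called, turned below 0 with the scaling. After quantile normalization CYP78A9 was at -0.25, CYP71B5 at -0.46, CYP71 at -0.29, CYP71B38 at -0.28, CYP71B34 at -0.41, CYP71B22 at -0.16, CYP59 at -0.18 and CYP71B28 at -0.19. With arrays centred CYP78A9 was at -0.080, CYP71B5 at -0.31, CYP71 at -0.14, CYP71B38 at -0.34, CYP71B34 at -0.21, CYP71B22 at -0.27 and CYP59 at -0.31. Subtracting a shared shift accounts for the second set, since the median of all probe sets moved to 0.01.

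With single arrays left out, the ranges that crossed 0 were -0.056 to 0.63 for CYP78A9, -0.050 to 0.17 for CYP71B5, -0.23 to 0.69 for CYP71, -0.88 to 0.92 for CYP71B38, -0.58 to 0.89 for CYP71B34, -0.49 to 0.67 for CYP71B22, -0.20 to 0.31 for CYP59, -0.0088 to 0.77 for CYP71B28, -0.026 to 1.43 for CYP71B36, -0.38 to 1.85 for CYP71B27 and -0.51 to 1.95 for CYP71B29.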
